A study of Sus scrofa with 60 samples.

Results

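ABCC8 and KCNJ11 encode the subunits of an ATP-sensitive potassium (KATP) channel, and their mRNA was followed in 60 liver libraries of neonatal pigs. ABCC8 encodes the regulatory subunit, the sulfonylurea receptor SUR1, and KCNJ11 encodes the pore subunit, Kir6.2. They are 2 of the 30335 named genes in the table of counts. ABCC8 was chosen by its own liver mRNA level, which was high in some livers and near 0 in others, and KCNJ11 was chosen as the gene of its partner subunit. The measured values that selected ABCC8 are therefore given as a description, with no test. KCNJ11 was tested, but it too was chosen with earlier results of these data known, which its p-values do not take into account.

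KATP channels couple the energy state of a cell to its membrane potential, since the pore closes when ATP is high. In pancreatic beta cells the channel of SUR1 and Kir6.2 sets the release of insulin, sulfonylurea drugs close it, and inherited changes in either gene cause congenital hyperinsulinism or neonatal diabetes. The related genes ABCC9 and KCNJ8 encode SUR2 and Kir6.1, which form KATP channels of muscle and vessel walls.

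The pigs were male and female animals of mixed Landrace and Hampshire breeding, delivered by cesarean section 1 day before term, that had either bile duct ligation (BDL), in which the cystic and the common bile duct were tied off so that bile could not leave the liver, or a sham operation with an abdominal incision and brief handling of the liver. All pigs carried a jugular catheter and were fed parenterally on the first day of life. They were then moved stepwise to an enteral milk replacer (ENT), or kept on parenteral nutrition with the soy-based lipid emulsion Intralipid (SLE) or with the mixed lipid emulsion SMOFlipid (MLE), and liver tissue was taken on day 14. The sham groups held 12 (ENT), 10 (SLE), and 9 (MLE) pigs and the BDL groups 10 (ENT), 11 (SLE), and 8 (MLE) pigs, with 1 library for each labelled liver. The titles of SLE-sham replicates 9 and 10 name the same pig, and both are counted in these numbers.

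Libraries held 14469788 to 21374161 counted reads, so that 3 reads, taken here as the floor, were worth 0.128 to 0.224 CPM (counts per 1000000 reads, after TMM scaling of the library sizes). ENT-sham replicate 2 and ENT-BDL replicate 1 were closer to each other than any other of the 1770 pairs, with a chi-square of 1.91 per degree of freedom against 16.1 in the next closest pair, although their surgery labels differ. Both had like sums of bile duct cell markers, at 283 and 281 CPM, where the other ENT-sham livers lay between 41.3 and 71.2 CPM. Whether a label is wrong or both libraries come from 1 liver was not tested, and the ENT differences of ABCC8 and KCNJ11 are also given without these libraries. Each pig identifier also holds a number with 8 values, of which no source used here gives the meaning. Pigs that share it are called a set here, from set 1 to set 8 in the order of the numbers, and the groups are spread unevenly over the sets. Sets 1 and 2 held 17 pigs, all of them in ENT-sham, ENT-BDL, or SLE-BDL, and sets 3 to 8 held 43 pigs from all groups.

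ABCC8 (gene ID 100158245) lies on the plus strand of chromosome 2 at chr2:41666974-41754624 on Sscrofa11.1, and KCNJ11 (gene ID 100158240) follows it on the same strand at chr2:41756637-41760340, with 2012 bases between them. ABCC8 was counted over an exon length of 4852 bases and KCNJ11 over 3704 bases. Over all livers ABCC8 drew 15377 reads and KCNJ11 273 reads. ABCC8 had no read in 12 livers and KCNJ11 in 19, and KCNJ11 stood at 3 reads or fewer in 36 of 60 livers.

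ABCC8 spread over a wide range between livers. In 10 livers it stood between 28.0 and 155 CPM, and in the other 50 the highest value was 5.42 CPM. All 10 came from ENT-sham, ENT-BDL, or SLE-BDL pigs, and none from SLE-sham or either MLE group. The median over all livers was 0.262 CPM, so the group means were set by a few animals. In whole tissue, more cells that express a gene and more RNA per cell cannot be told apart, which holds for all values given here.

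In ENT-sham livers ABCC8 ran from 0 to 155 CPM with a median of 0.0246 CPM (17.8 ± 44.6 CPM, mean ± SD, n = 12). Replicates 1, 2, and 3 read 31.2, 155, and 28.0 CPM. The other 9 livers of that group held at most 2 reads, and 6 of those held none. The group was thus split between animals with 511 to 3633 reads and animals with 0 to 2.

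In ENT-BDL livers ABCC8 ran from 0.103 to 147 CPM with a median of 0.739 CPM (37.5 ± 52.8 CPM, n = 10). Replicates 1, 2, 3, and 5 stood at 147, 95.1, 65.1, and 65.9 CPM. Replicate 4 read 0.993 CPM, and the remaining 5 livers lay below 0.5 CPM. The ENT-sham and ENT-BDL ranges overlapped almost completely.

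SLE-sham livers were uniformly low in ABCC8, with a lowest value of 0, a median of 0.0897 CPM, and a highest value of 0.341 CPM (0.121 ± 0.128 CPM, n = 10). SLE-BDL livers ran from 0.0607 to 56.8 CPM with a median of 1.38 CPM (14.6 ± 22.7 CPM, n = 11). Of these, replicates 1, 3, and 4 stood at 56.8, 39.1, and 51.8 CPM, and replicates 6 and 7 at 4.52 and 5.42 CPM. The lowest SLE-BDL livers lay inside the SLE-sham range.

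MLE-sham livers held ABCC8 at 0 to 0.447 CPM with a median of 0.0676 CPM (0.127 ± 0.149 CPM, n = 9). MLE-BDL livers held it at 0.460 to 4.19 CPM with a median of 1.62 CPM (2.05 ± 1.46 CPM, n = 8). The lowest MLE-BDL liver was just above the highest MLE-sham liver, and this was the only diet on which the sham and BDL groups as a whole did not overlap. Of all 16210 genes tested, 2.85% had MLE-sham and MLE-BDL ranges that did not overlap.

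**Figure D1:**
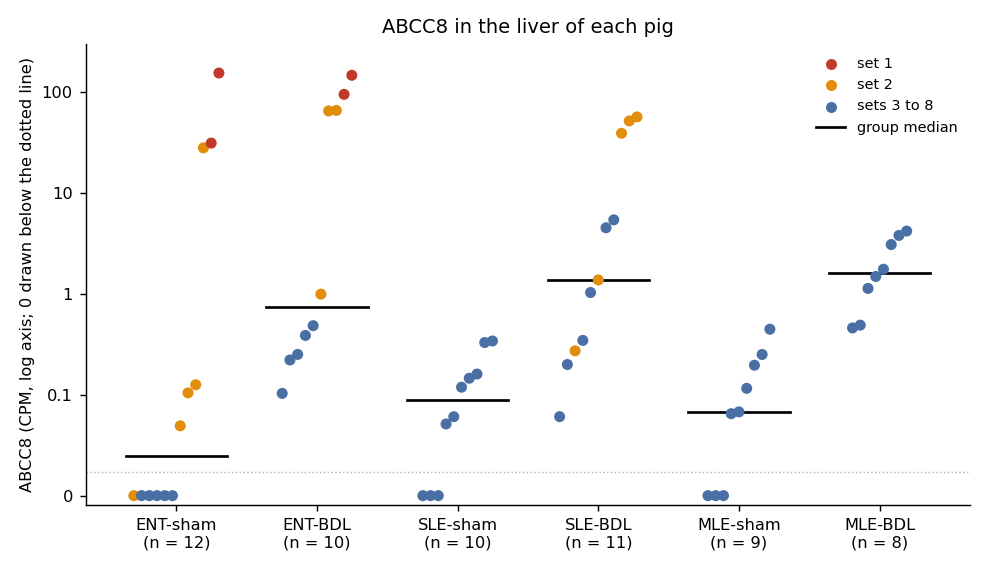
ABCC8 in each liver as CPM on a log axis, with livers at 0 drawn below the dotted line, by diet and surgery group. Points are single pigs coloured by set and bars are group medians. The 10 livers at or above 28.0 CPM belong to sets 1 and 2, and the MLE-BDL livers lie between 0.460 and 4.19 CPM, all above the MLE-sham livers.

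The order of the groups depended on the summary. By mean CPM the order from high to low was ENT-BDL, ENT-sham, SLE-BDL, MLE-BDL, MLE-sham, and SLE-sham. By median CPM it was MLE-BDL, SLE-BDL, ENT-BDL, SLE-sham, MLE-sham, and ENT-sham, so that every BDL group stood above every sham group. The sham medians all lay below the floor of 3 reads, so the order among the sham groups is not resolved. Neighbours in either order overlapped in range, apart from MLE-BDL and MLE-sham, which are neighbours in the order of the means.

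Livers at or above 1 CPM of ABCC8 were also counted. That level was reached in 3 of 12 ENT-sham, 0 of 10 SLE-sham, and 0 of 9 MLE-sham livers. After BDL it was reached in 4 of 10 ENT-BDL, 7 of 11 SLE-BDL, and 6 of 8 MLE-BDL livers. ENT-BDL replicate 4 fell just short, at 0.993 CPM, and the ENT-BDL livers that reached 1 CPM were all in sets 1 and 2. At 5 CPM the counts were 4 of 10, 4 of 11, and 0 of 8, so the order of the diets depended on the level. The 3 sham livers above 1 CPM were ENT-sham replicates 1 to 3, which include the library that closely matched an ENT-BDL library.

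The high livers fell in 2 of the 8 sets. All 4 pigs of set 1 were high, with the sham pigs at 31.2 and 155 CPM and the BDL pigs at 95.1 and 147 CPM. ENT-sham replicate 2, at 155 CPM, and ENT-BDL replicate 1, at 147 CPM, are the closely matching libraries. Whether set 1 holds 4 separate livers, and how they split by surgery, is therefore not certain. Of the 13 pigs of set 2, 6 were high, and the others ran from 0 to 1.38 CPM. Within set 2, 1 of 5 sham and 5 of 8 BDL livers were at or above 10 CPM. The 17 pigs of these sets held 14803 of the 15377 ABCC8 reads, or 96.3%. Levels of 10 CPM or more were reached in sets 1 and 2 by 3 of 7 ENT-sham, 4 of 5 ENT-BDL, and 3 of 5 SLE-BDL livers, and in sets 3 to 8 by none of the 5, 5, and 6 livers of these groups. Neither set 1 nor set 2 holds an SLE-sham or MLE pig, so for those groups set and group cannot be told apart.

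Among the 43 pigs of sets 3 to 8 ABCC8 was low, yet BDL livers as a whole stood above sham livers. The 24 sham livers ran from 0 to 0.447 CPM with a median of 0.0560 CPM, and the 19 BDL livers from 0.0607 to 5.42 CPM with a median of 0.490 CPM. None of the 24 sham livers and 9 of the 19 BDL livers reached 1 CPM. On the ENT diet the 5 sham livers had no ABCC8 read and the 5 BDL livers had 26 reads in all, at 0.103 to 0.484 CPM. These groups did not overlap, as was the case for 7.76% of tested genes in the same 10 livers.

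Within a single set the ABCC8 level was also higher after BDL. Sham and BDL livers could be compared within 6 sets on ENT, 4 on SLE, and 4 on MLE, and the BDL mean was above the sham mean in each of them. Every BDL liver was above every sham liver in 4 of 6 sets on ENT, in 4 of 4 on SLE, and in 4 of 4 on MLE. Of all tested genes 9.35% had a higher BDL mean in 6 of 6 sets on ENT, 9.14% in 4 of 4 on SLE, and 15.2% in 4 of 4 on MLE, while 17.6%, 1.33%, and 3.59% had every BDL liver above every sham liver in at least 4 sets of these diets. The exceptions were sets 1 and 2 on the ENT diet, where sham and BDL livers overlapped. Apart from the 5 sham livers of set 2, each of these comparisons holds 1 to 3 livers of a kind.

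**Figure D2:**
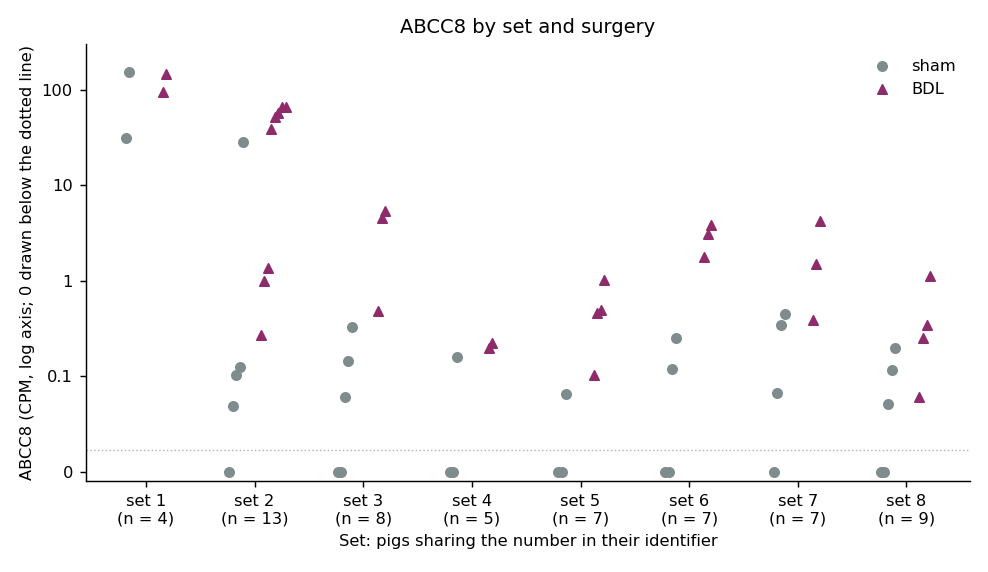
ABCC8 in each liver as CPM on a log axis, with livers at 0 drawn below the dotted line, by set (pigs that share the number in their identifier) and by surgery, with circles for sham and triangles for BDL. Livers above 10 CPM occur in sets 1 and 2, and in sets 3 to 8 sham livers stay at or below 0.447 CPM while BDL livers reach 5.42 CPM.

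The fitted differences of ABCC8 moved with these pigs. Over all 60 pigs the log2 difference of BDL minus sham was 1.06 (SE 0.99) on ENT, 6.85 (SE 1.71) on SLE, and 3.88 (SE 2.03) on MLE. With the 17 pigs of sets 1 and 2 left out, a choice made after the values were seen, it was 3.93 (SE 0.72) on SLE and 3.89 (SE 0.71) on MLE. On ENT the sham livers were then all at 0, so the fitted value there is no bound.

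ABCC8 differences between diets after BDL turned round. Over all pigs the log2 difference was -1.36 (SE 1.03) for SLE-BDL minus ENT-BDL, -4.19 (SE 1.35) for MLE-BDL minus ENT-BDL, and -2.84 (SE 1.28) for MLE-BDL minus SLE-BDL. Without sets 1 and 2 the values were 2.71 (SE 0.82), 2.79 (SE 0.80), and 0.08 (SE 0.63), so both parenteral groups lay above ENT-BDL and close to each other. With all pigs kept and the set as a term in the model, they were 0.56 (SE 0.78), 1.95 (SE 1.37), and 1.39 (SE 1.38). The direction of the ABCC8 difference between diets therefore depended on how the sets were treated. Leaving out ENT-sham replicate 2 alone moved the ENT difference of BDL minus sham from 1.06 to 2.78, and leaving out ENT-BDL replicate 1 moved it to 0.50. With both of these closely matching libraries left out it was 2.22 (SE 1.03). Without ENT-BDL replicate 1 the difference of SLE-BDL minus ENT-BDL was -0.79.

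KCNJ11 was scarce in all livers and never exceeded 1.21 CPM, but its reads were concentrated in BDL livers. On SLE and MLE the difference between BDL and sham passed the test, and on ENT it did not with all pigs in the model. The gene passed the filter on low counts through its BDL livers, since 11 of the 12 livers at or above 0.5 CPM were BDL livers, so a gene kept in this way had to differ somewhere. With no filter on low counts the log2 fold change was 2.56 on SLE (edgeR adjusted p = 0.0201), 3.25 on MLE (adjusted p = 0.00401), and 1.02 on ENT (adjusted p = 0.338).

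In SLE-sham livers KCNJ11 ran from 0 to 0.308 CPM with a median of 0.0636 CPM, at 0 to 6 reads (n = 10). In SLE-BDL livers it ran from 0 to 1.21 CPM with a median of 0.541 CPM, at 0 to 20 reads (n = 11). The means were 0.0893 ± 0.107 and 0.581 ± 0.387 CPM. Of the SLE-BDL livers 8 exceeded the highest SLE-sham liver, and replicate 5 had no read. The log2 fold change was 2.55 (SE 0.63, edgeR quasi-likelihood test, Benjamini-Hochberg adjusted p = 0.0109), beside 1.47% of all 16210 tested genes that passed the adjusted p of 0.05 and the fold change of 2 in that comparison. Without SLE-sham replicate 9 the fold change was 2.79 and without replicate 10 it was 2.99, with adjusted p-values of 0.00999 and 0.00616. Such p-values measure the spread between livers.

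In MLE-sham livers KCNJ11 was at 0 in 7 of 9 animals and at 3 reads in the remaining 2, so the whole group lay at the floor. MLE-BDL livers held 1 to 15 reads, or 0.0544 to 0.802 CPM with a median of 0.471 CPM (0.459 ± 0.271 CPM, n = 8). All MLE-BDL livers but replicate 2 lay above the highest MLE-sham liver, at 0.195 CPM. The log2 fold change was 3.25 (SE 0.78, edgeR adjusted p = 0.00244), beside 3.73% of tested genes. Summed over the groups, 70 reads in MLE-BDL stood against 6 in MLE-sham, a ratio of 10.9 per counted read with an exact 95% interval of 4.77 to 30.7 that covers counting error only.

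In ENT-sham livers KCNJ11 ran from 0 to 0.638 CPM with a median of 0.0490 CPM (n = 12), and in ENT-BDL livers from 0 to 0.529 CPM with a median of 0.182 CPM (n = 10). The highest ENT-sham liver was replicate 2, with 15 of the 26 reads of its group. The log2 fold change was 1.00 (SE 0.62, edgeR adjusted p = 0.279), and 3.41% of tested genes passed in that comparison. Without ENT-sham replicate 2 it was 1.91 with an adjusted p of 0.0267, and without that library and the ENT-BDL library it matched it was 1.69 with an adjusted p of 0.0654. Whether KCNJ11 passed the test on ENT thus rested on 1 library.

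**Figure D3:**
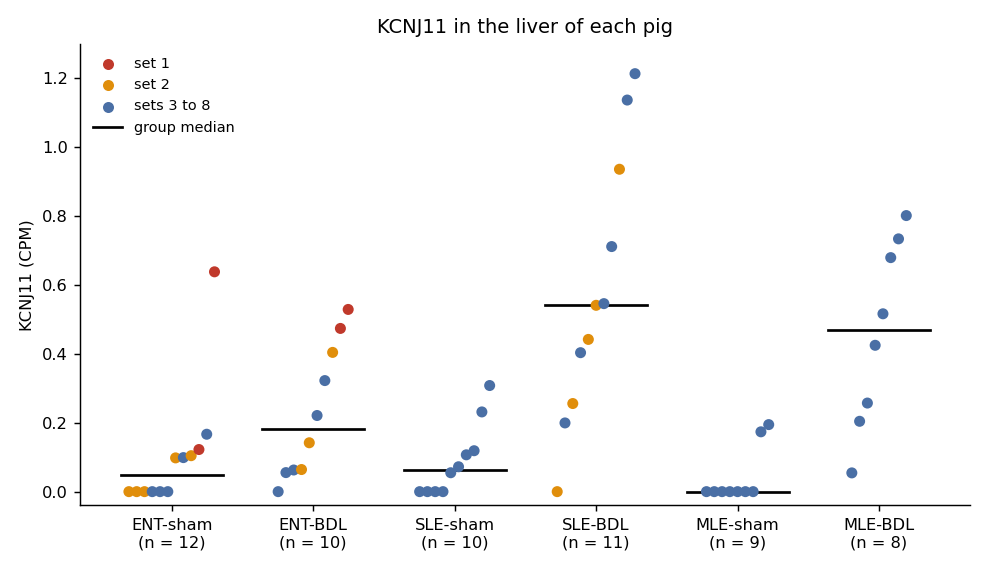
KCNJ11 in each liver as CPM on a linear axis, by diet and surgery group, with points for single pigs coloured by set and bars for group medians. SLE-BDL and MLE-BDL medians lie at 0.541 and 0.471 CPM, the MLE-sham median lies at 0, and the single high ENT-sham point is replicate 2 at 0.638 CPM.

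Unlike ABCC8, KCNJ11 was not concentrated in sets 1 and 2, whose 17 pigs held 94 of its 273 reads, or 34.4%. Its highest livers were SLE-BDL replicates 9 and 7, at 1.21 and 1.14 CPM, from sets 5 and 3. With sets 1 and 2 left out, the log2 fold change was 2.81 (SE 0.63, edgeR adjusted p = 0.00579) on SLE and 3.24 (SE 0.72, adjusted p = 0.00103) on MLE. Within single sets the BDL mean was above the sham mean in 4 of 4 sets on SLE, 4 of 4 on MLE, and 5 of 6 on ENT. At least 5 of 6 on ENT was reached by 21.9% of tested genes, beside the 9.14% and 15.2% given above for SLE and MLE. The exception was set 7 on ENT, where 2 reads in the sham liver stood against 1 in the BDL liver.

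The effect of BDL on KCNJ11 was not shown to differ between diets. The interaction was 1.55 on the log2 scale (SE 0.91, edgeR adjusted p = 0.448) for SLE minus ENT, 2.25 (SE 1.03, adjusted p = 0.513) for MLE minus ENT, and 0.70 (SE 1.00, adjusted p = 0.893) for MLE minus SLE. The shares of all genes with an adjusted p under 0.05 for these interactions were 2.28%, 0.0802%, and 0.278%. The pairs of sham groups differed by -0.26 (SE 0.70, adjusted p = 0.825) for SLE minus ENT, -1.30 (SE 0.84, adjusted p = 0.287) for MLE minus ENT, and -1.04 (SE 0.90, adjusted p = 0.752) for MLE minus SLE, in comparisons where 5.22%, 3.71%, and 0.45% of tested genes passed.

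By mean CPM KCNJ11 ran in the order SLE-BDL, MLE-BDL, ENT-BDL, ENT-sham, SLE-sham, and MLE-sham, and each neighbour overlapped the next in range. After BDL the log2 difference was 1.29 (SE 0.55, edgeR adjusted p = 0.088) for SLE-BDL minus ENT-BDL, 0.95 (SE 0.59, adjusted p = 0.289) for MLE-BDL minus ENT-BDL, and -0.34 (SE 0.55, adjusted p = 0.848) for MLE-BDL minus SLE-BDL. SLE-BDL against ENT-BDL passed the test when the set was a term in the model, at 2.0 (SE 0.56, adjusted p = 0.00744), and when sets 1 and 2 were left out, at 2.34 (SE 0.75, adjusted p = 0.0331). With all pigs in the model 3.12% of tested genes passed in that comparison, 3.2% in MLE-BDL against ENT-BDL, and 0.395% in MLE-BDL against SLE-BDL.

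**Figure D4:**
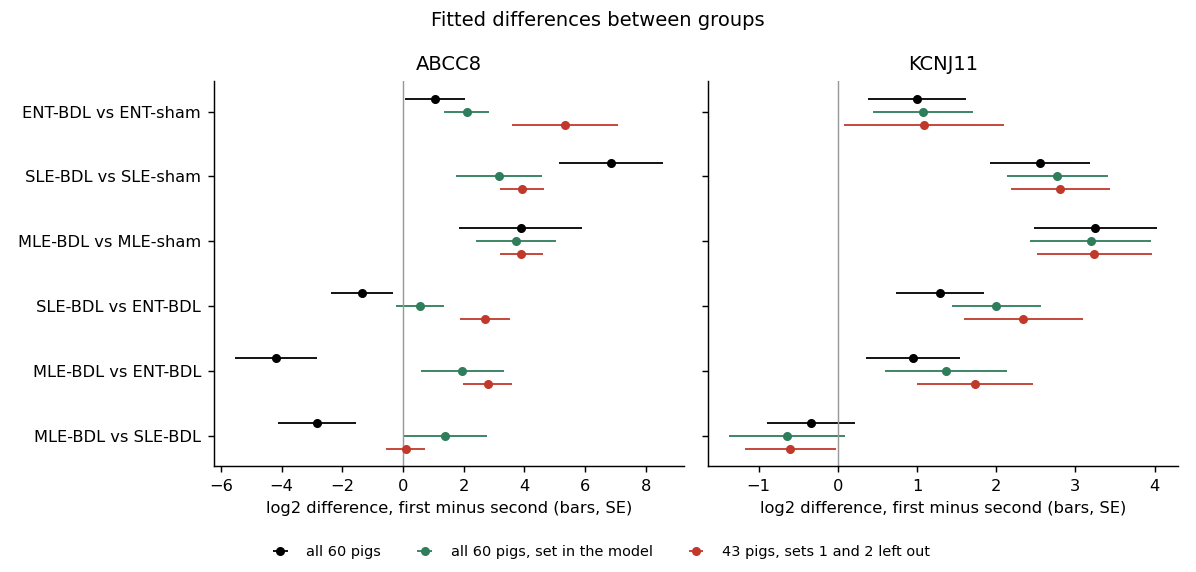
Fitted log2 differences of ABCC8 (left) and KCNJ11 (right) for 6 comparisons, first group minus second, with bars for the SE. Black points use all 60 pigs, green points add the set to the model, and red points leave out the 17 pigs of sets 1 and 2. For ABCC8 the comparisons between diets move from -1.36, -4.19, and -2.84 to 2.71, 2.79, and 0.08, while the SLE and MLE differences of KCNJ11 stay between 2.55 and 3.25.

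The 2 genes followed each other unevenly. Spearman's rho of their CPM was 0.641 over the 60 pigs, which mixes groups and sets and is given as a description. Within groups Pearson's r of log2 CPM was 0.938 in MLE-BDL (n = 8), 0.723 in ENT-sham (n = 12), 0.624 in ENT-BDL (n = 10), 0.341 in SLE-BDL (n = 11), -0.026 in MLE-sham (n = 9), and -0.295 in SLE-sham (n = 10). Without the 2 pigs farthest from the group median of ABCC8 it was 0.952 in MLE-BDL but 0.319 in ENT-sham and 0.343 in ENT-BDL, while Spearman's rho over all pigs of these groups was 0.482 in ENT-sham and 0.745 in ENT-BDL. The linear relation in the ENT groups thus rested on those pigs. The MLE-BDL livers were ordered almost alike by both genes, with ABCC8 from 9 to 80 reads and KCNJ11 from 1 to 15.

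Per length, in RPKM (CPM per kilobase of counted exon), the ratio of ABCC8 to KCNJ11 could be taken in 21 livers with more than 3 reads of both. It lay between 0.649 and 4.85 (median 2.67) in the 13 such livers from sets 3 to 8, of which 7 were MLE-BDL livers. It lay between 2.38 and 212 (median 138) in the 8 livers from sets 1 and 2. The lowest of those 8 was SLE-BDL replicate 2, a pig of set 2 with 28 ABCC8 reads, and the next was at 46.3. In ENT-BDL replicate 1 KCNJ11 had 11 reads against 3053 of ABCC8.

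The genes of the other KATP subunits were present in every liver at a narrower range. ABCC9 (SUR2) had a median of 2.08 RPKM, from 0.551 to 3.52, and KCNJ8 (Kir6.1) a median of 2.20 RPKM, from 1.11 to 3.30. The medians of ABCC8 and KCNJ11 were 0.0540 and 0.0325 RPKM, while the highest ABCC8 liver reached 31.9 RPKM and the highest KCNJ11 liver 0.328 RPKM. Per length, ABCC8 was the most abundant of the 4 in the 10 livers above 10 CPM and lay below ABCC9 in each of the other 50. SLE-BDL replicates 6 and 7 came closest, with 0.932 and 1.12 RPKM of ABCC8 against 1.03 and 1.18 of ABCC9.

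ABCC9 did not pass the test in any comparison of BDL with sham, at log2 fold changes of 0.04 on ENT (SE 0.19, edgeR adjusted p = 0.917), 0.14 on SLE (SE 0.20, adjusted p = 0.770), and -0.15 on MLE (SE 0.22, adjusted p = 0.711). KCNJ8 gave -0.30 (SE 0.14, adjusted p = 0.143), 0.42 (SE 0.15, adjusted p = 0.0836), and -0.06 (SE 0.16, adjusted p = 0.849). The SLE and ENT effects on KCNJ8 differed by 0.72 (SE 0.21, adjusted p = 0.0411), but this call was lost in 27 of 70 alternative fits, among them the one without sets 1 and 2, at 0.64 with an adjusted p of 0.304. Its level went from 6.28 ± 0.885 CPM in ENT-sham to 5.11 ± 1.28 in ENT-BDL, and from 4.28 ± 0.787 in SLE-sham to 5.74 ± 1.82 in SLE-BDL.

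**Figure D5:**
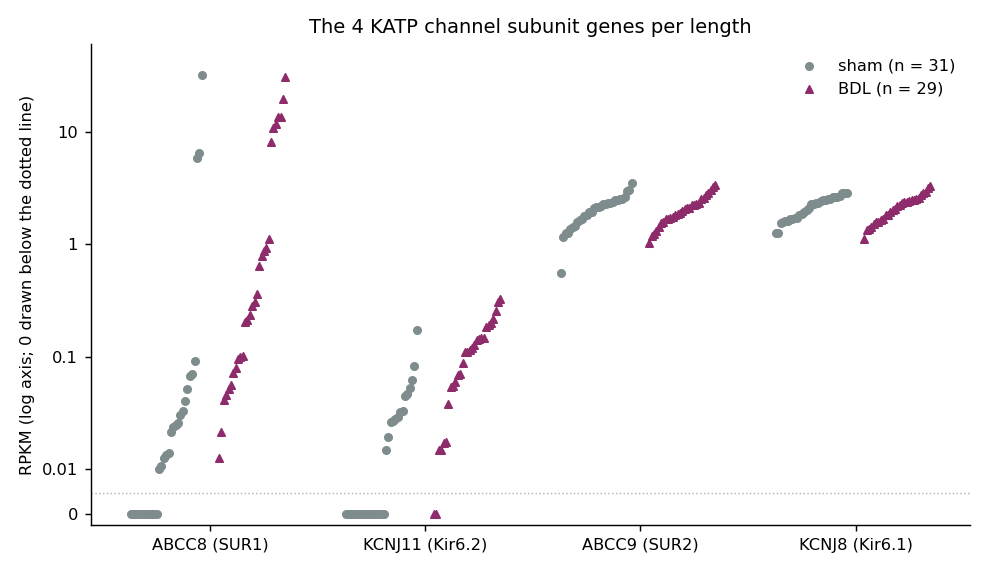
RPKM of the 4 KATP subunit genes in each liver on a log axis, with livers at 0 drawn below the dotted line (circles, sham; triangles, BDL; each cloud in order of level). ABCC9 and KCNJ8 stay between 0.551 and 3.52 RPKM in all 60 livers, whereas ABCC8 spreads from 0 to 31.9 RPKM and KCNJ11 from 0 to 0.328 RPKM.

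A few genes that work with or resemble the channel changed. The lists held 84 further genes, of which 62 were tested. After BDL 3 rose and 1 fell on ENT, 2 rose and none fell on SLE, and 4 rose and 1 fell on MLE, against the 3.41%, 1.47%, and 3.73% of all tested genes given above. As shares of the 62 these counts lie above those of all genes on each diet. They rest on few genes, and the excess was not tested. The median log2 fold changes of the 62 were 0.04, 0.16, and 0.02, and those of all genes were 0.00, 0.00, and -0.01. None of the 6 tested KATP partners, such as the nonselective cation channel TRPM4 and the cAMP sensor RAPGEF4, and none of the 4 tested transcription factors that act on these genes in beta cells passed in the comparisons of BDL with sham.

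Among inward rectifiers, the potassium channel family of KCNJ11, 8 of 13 were tested. KCNJ5 and KCNJ3, subunits of G protein-gated channels, went opposite ways on ENT, KCNJ5 rising by 1.57 (SE 0.55, edgeR adjusted p = 0.0364) and KCNJ3 falling by 1.01 on the log2 scale (SE 0.35, adjusted p = 0.039). These calls were lost in 11 of 68 and 24 of 69 alternative fits. KCNJ13, or Kir7.1, was lower in SLE-BDL and MLE-BDL than in ENT-BDL, by -3.51 (SE 0.55, adjusted p = 3.42e-06) and -2.07 (SE 0.53, adjusted p = 0.00376). KCNJ3 was lower there too, by -1.59 (adjusted p = 0.00342) and -1.45 (adjusted p = 0.0165), the second of which was lost with the set in the model (adjusted p = 0.112). The other 5 inward rectifiers tested passed in none of these comparisons. Of all tested genes 3.41% passed on ENT, 3.12% in SLE-BDL against ENT-BDL, and 3.2% in MLE-BDL against ENT-BDL.

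Of 9 tested transporters from the family of ABCC8, 2 rose on ENT, none on SLE, and 1 on MLE, beside 3.41%, 1.47%, and 3.73% of all tested genes. CFTR, the chloride channel of bile duct cells, rose by 1.31 on ENT (SE 0.27, edgeR adjusted p = 0.000322) and by 1.06 on MLE (SE 0.31, adjusted p = 0.0133). ABCC4, which exports bile acids at the sinusoidal side of hepatocytes, rose by 1.07 on ENT (SE 0.18, adjusted p = 1.18e-05). In 3 of 70 alternative fits its fold change did not exceed 2, among them those without sets 1 and 2, at 0.96 and, with the set in the model, 0.99.

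Other potassium channels and genes of glucose sensing and secretion gave a few calls. KCNE4, a channel accessory subunit, rose by 1.81 on SLE (SE 0.43, edgeR adjusted p = 0.00923), but by 0.98 with an adjusted p of 0.133 when SLE-BDL replicate 9 was left out. KCNK1 rose by 1.24 (SE 0.34, adjusted p = 0.00863) and KCNK3 fell by 1.01 (SE 0.30, adjusted p = 0.0148) on MLE, both channels of the tandem-pore family, and the second call was lost in 21 of 69 alternative fits. SNAP25, a part of the vesicle fusion machinery, rose by 3.51 on SLE (SE 0.92, adjusted p = 0.0174) at no more than 1.23 CPM, and by 2.92 with an adjusted p of 0.0632 with the set in the model. It reached 0.5 CPM in 5 SLE-BDL, 2 ENT-BDL, 1 MLE-BDL, and 1 ENT-sham livers, and in no other group. SNAP25 thus passed the filter on low counts mostly through BDL livers, as KCNJ11 did, and had to differ somewhere. On MLE the vesicle calcium sensor SYT7 rose by 1.15 (SE 0.30, adjusted p = 0.00498, or 0.87 and 0.0398 without MLE-BDL replicate 3). The glucose transporter SLC2A1 was higher than in ENT-BDL by 1.44 (SE 0.18, adjusted p = 2e-08) in SLE-BDL and by 1.24 (SE 0.19, adjusted p = 2.45e-06) in MLE-BDL.

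The upstream neighbour of the pair, USH1C, a scaffold protein of the microvillus border, moved in the same direction as both. It lies 20196 bases before ABCC8 on the same strand and had a rho of 0.63 with ABCC8 and 0.625 with KCNJ11 over the 60 pigs. After BDL its log2 fold change was 0.82 on ENT (SE 0.22, edgeR adjusted p = 0.00521), 0.87 on SLE (SE 0.23, adjusted p = 0.0174), and 1.33 on MLE (SE 0.25, adjusted p = 0.000111), and the last of these also passed the fold change of 2. The set 1 pigs, all high in ABCC8, had the highest USH1C livers of both ENT groups, at 8.50 and 17.2 CPM in ENT-sham and 17.5 and 18.4 CPM in ENT-BDL. The values of 17.2 and 18.4 CPM came from the closely matching libraries. The other ENT livers high in ABCC8, ENT-sham replicate 3 and ENT-BDL replicates 3 and 5, had USH1C at 5.73, 11.8, and 8.03 CPM. The group medians were 5.55 CPM in ENT-sham and 10.8 CPM in ENT-BDL. Over sets the median of USH1C was 17.3 CPM in set 1 and 5.21 to 11.4 CPM in the others, and its highest liver, at 27.3 CPM, was in set 5. The next genes downstream, NUCB2, PIK3C2A, and RPS13, had rhos of 0.044, -0.174, and 0.054 with ABCC8 and passed in no comparison of BDL with sham, and MYOD1 and OTOG upstream were too low to be tested.

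By Spearman's rho over the 60 pigs the 8 tested genes most like ABCC8 were VAT1L, STX3, SLC25A24, SLC26A6, ACSS1, EZR, CLDN10, and INPP5F, with rhos from 0.758 to 0.699. The mean of the 6 rhos within groups was lower, at 0.272 to 0.524 for these genes. For KCNJ11 the 8 were ACSS1, COL7A1, TLE3, PLAT, PLAUR, ANXA5, PPP1R13L, and LOC102165318, with rhos from 0.752 to 0.721 and within-group means of 0.391 to 0.553. KCNJ11 came 49th in likeness to ABCC8, and ABCC8 came 95th in likeness to KCNJ11. These rhos share libraries, depth, and the contrast of BDL with sham.

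Islet cells were looked for by 18 markers of pancreatic endocrine cells, since the tissue is liver. SST, PPY, NKX2-2, and NEUROD1 had no read in any of the 60 livers, INS had 5 reads in all and at most 0.0984 CPM, and GCG had 11 reads in all. The summed level of these markers was 4.03 to 8.26 CPM in ENT-sham, 3.61 to 6.03 in ENT-BDL, 2.02 to 6.12 in SLE-sham, 2.60 to 7.59 in SLE-BDL, 2.40 to 6.54 in MLE-sham, and 4.29 to 6.64 in MLE-BDL. The hormone genes INS, GCG, SST, and PPY were thus at or near 0 in all livers. Other markers of the list were detected, among them IAPP, the gene of islet amyloid polypeptide, at 0 to 3.27 CPM (median 0.766), PDX1 at 0 to 1.18 (median 0.438), RFX6 at 0.153 to 4.14 (median 1.39), PTPRN at 0.0723 to 4.79 (median 0.450), and SCG3 at 0.195 to 2.26 (median 0.771). Markers of acinar cells, neurons, and striated muscle summed to at most 7.54, 5.27, and 5.67 CPM.

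Markers of bile duct cells moved with BDL. Their summed level was 41.3 to 283 CPM (median 57.2) in ENT-sham against 158 to 305 (median 207) in ENT-BDL, 108 to 279 (median 170) against 129 to 344 (median 211) on SLE, and 64.0 to 108 (median 86.8) against 131 to 321 (median 229) on MLE. The 283 CPM belonged to ENT-sham replicate 2, beside 281 CPM in ENT-BDL replicate 1, and ENT-sham replicates 1 and 3, also high in ABCC8, stood at 55.7 and 49.0 CPM. Of 6 such markers 4 rose on ENT, 1 on SLE, and 5 on MLE, where 3.41%, 1.47%, and 3.73% of all tested genes passed in either direction. Hepatocyte markers had median sums of 108390 CPM in ENT-sham and 62484 in ENT-BDL, 79491 and 74111 on SLE, and 87617 and 54859 on MLE, and no marker of the 7 tested passed. ALB, the albumin gene, was the most abundant of them, at a mean of 49497 CPM. Of 8 smooth muscle and pericyte markers RGS5 rose on SLE, and of 6 macrophage markers MARCO rose on each diet. The median log2 fold changes of the macrophage markers were -0.26, -0.07, and -0.16 on ENT, SLE, and MLE, and the medians of their sums were 763, 629, and 623 CPM in the sham groups and 578, 537, and 465 CPM in the BDL groups. The part of these cell types in the levels of ABCC8 and KCNJ11 was not tested.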

How the data were processed

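Liver RNA was sequenced in 60 poly(A) libraries, treated as 60 pigs. The authors deposited counts of reads per gene, as whole numbers without normalization, and their processing notes name HISAT2 2.0.5, StringTie 1.3.3, featureCounts 1.5.0-p3, and the Sscrofa11.1 assembly. Whether counting used the strand is not given in the sources used here, and a read shared by overlapping genes could change a low count. Groups came from the labels, and 24 features without a gene name (0.00842% to 0.0407% of a library) were left out of the totals.

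Counts were scaled by TMM to CPM. Genes kept by filterByExpr (16210) were tested over all pigs with glmQLFit (robust) and glmQLFTest in edgeR 4.0.16 under R 4.3.3, two-sided, with Benjamini-Hochberg adjustment over all tested genes and a gene was called where its adjusted p lay under 0.05 and its fold change exceeded 2. Interactions needed the adjusted p alone. Log2 CPM used a prior count of 2. RPKM used the gene length in the table. DESeq2 1.42.0 was an alternative, and Python 3.11.15 with pandas 2.3.3, scipy 1.17.1, and matplotlib 3.10.9 was used for summaries. The method was tested on simulated data, in which the changed genes had more reads than KCNJ11, so that test does not cover its calls. Precision is given as SD over pigs or as SE. Intervals and the floor of 3 reads cover counting error only.

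Both genes, the gene lists, and the tests were chosen with earlier results of these data known. The genes named are the 2 channel genes, the other KATP subunits, up to 2 called genes of each list and main comparison with the largest change, the 8 genes most like each, and the 3 nearest genes on either side, while TRPM4, RAPGEF4, and the marker genes are named as list members. Some members of the lists are not reported here by name. Alternatives were RLE scaling, other filters, DESeq2, edgeR on the groups compared, a replicate block or a block of the set (the pigs that share the number in their identifier), other CPM levels, and leaving out pigs.

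Replicate numbers did not pair pigs, since same-numbered libraries of the groups compared correlated at -0.232 to 0.381 in 82 pairs (median -0.011). Pigs of the same set in different groups correlated at a mean of 0.133 in 177 pairs, against -0.018 for other pairs, and the set entered the model as an alternative. The titles of SLE-sham replicates 9 and 10 name the same pig. These libraries differed by a chi-square of 34.2 per degree of freedom, where other pairs within a group started at 16.1, and were both kept.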

Additional observations from a re-analysis of the deposited data

Results flagged for a closer look

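The effect of BDL on KCNJ8 differed between SLE and ENT by 0.72 on the log2 scale (edgeR adjusted p = 0.0411), with levels higher after BDL on SLE and lower on ENT, and neither change passed on its own. The call was lost in 27 of 70 alternative fits, with an adjusted p of 0.304 without sets 1 and 2.

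Single pigs stood far from the rest of their group, by Dixon's ratio at the 95% level, in 17 of 144 pairings of a named gene and a group of 8 to 10 pigs, where chance gives about 1 in 20. The rate of 1 in 20 holds for normally spread values, which genes near 0, such as SNAP25 and MYOD1, do not have. No pairing with ABCC8 or KCNJ11 was among them, although ENT-sham and SLE-BDL are too large for that check. It looks for a single outlying pig, so it could not flag the 4 high ABCC8 livers of ENT-BDL. ENT-BDL replicate 2 was high for KCNE4 (1.47 CPM), STX3 (15.5), COL7A1 (14.8), PLAT (63.7), PLAUR (14.1), and LOC102165318 (24.4). ENT-BDL replicate 4 was high for NUCB2 (54.3 CPM) and PIK3C2A (55.1) and low for RPS13 (80.8). MLE-BDL replicate 3 was high for SNAP25 (0.993 CPM) and SYT7 (5.59). SLE-sham replicate 6 was high for SNAP25 (0.281 CPM), and SLE-sham replicate 5 for MYOD1 (0.217). MLE-sham replicate 7 was high for KCNJ5 (1.35 CPM), MLE-sham replicate 2 for TLE3 (21.1) and MYOD1 (0.389), and MLE-sham replicate 5 for CLDN10 (9.28).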

How the results depend on the processing

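The KCNJ11 calls on SLE and MLE held in all 68 alternative fits that gave a value, at log2 fold changes of 2.39 to 2.99 and 3.09 to 3.94. With at least 10 reads in every pig KCNJ11 could not be fitted, and on only the groups compared it could be fitted just for the interaction MLE minus SLE (0.71). SLE-BDL against ENT-BDL passed with the set block (2.0), without both matching ENT libraries (1.52), and, added after seeing the data, without sets 1 and 2 (2.34, or 2.38 with the block). Leaving out single pigs gave 0.77 to 1.91 for ENT-BDL against ENT-sham and -0.70 to 0.66 for SLE-sham against ENT-sham, both highest without ENT-sham replicate 2. The latter turned from -0.26 to 0.31 with the set block, 0.66 without both matching libraries, and 0.61 or 0.57 without sets 1 and 2. With the replicate block MLE-BDL against SLE-BDL turned from -0.34 to 0.02, and the block changed no other KCNJ11 call.

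Of the 6 ABCC8 log2 differences given, those between BDL groups turned, to 0.56, 1.95, and 1.39 with the set block, 2.71, 2.79, and 0.08 without sets 1 and 2, and 2.19, 2.68, and 0.48 with both. With the replicate block SLE-BDL minus ENT-BDL became -0.15, MLE-BDL minus ENT-BDL -2.53, and ENT-BDL minus ENT-sham 1.48. BDL minus sham became 2.10 on ENT with the set block, and 5.34 or 6.02 without those sets, values that are no bound since ENT-sham was then at 0, and on SLE 3.15 with the set block and 3.93 or 3.75 without those sets. The ratio of group medians was 30.0 on ENT and 15.3 on SLE, whose ratios of means were 2.10 and 121, but these sham medians lie below the floor of 3 reads and the ratios cannot be read as folds. Livers with ABCC8 fell to 4 of 11 in SLE-BDL at 5 CPM, and to 3 and 0 of 8 in MLE-BDL at 2 and 5 CPM. The within-group r became 0.482 as Spearman's rho or 0.319 without the 2 farthest pigs in ENT-sham, and without those pigs 0.343 in ENT-BDL and 0.341 in MLE-sham.

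Channel and secretion genes called after BDL (4 on ENT, 2 on SLE, 5 on MLE) became 2, 0, and 2 with at least 10 reads in every pig, 2 on ENT with no filter or the replicate block, and on SLE 1 without the matching libraries or without sets 1 and 2 and 0 on the groups compared. Between BDL groups (4, 3, and 0) they became 1 and 1 with at least 10 reads, 2 and 1 on the groups compared, 5 for MLE against ENT without the matching libraries, and 1 for MLE against SLE with either set block. Between sham groups (4, 2, and 0) they became 2 and 1 with at least 10 reads, 7 for SLE against ENT with the set block, 8 and 5 without sets 1 and 2, 9 and 5 with both, and 1 for MLE against SLE with either block or DESeq2. Interactions (2, 1, and 0) became 1 for SLE with no filter or on the groups compared, 5 without the matching libraries, and 0 and 0 without sets 1 and 2. Leaving out single pigs gave 2 to 6, 1 to 3, and 3 to 5 after BDL, 4 to 6, 3 to 5, and 0 to 1 between BDL groups, 3 to 5, 2 to 3, and 0 to 1 between sham groups, and 1 to 4 and 0 to 1 for the interactions. Where not stated, the cause was not tested. A transcript or coding length was not run, since the reference gives only gene spans. Depth limits KCNJ11, of which 36 livers held 3 reads or fewer.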
